A study of Homo sapiens with 4 samples.

Results

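The data are the miRNAs recovered from RD cells with 2 separate sets of antisense probes against circHIPK3, each compared with the input lysate. RD is an established human rhabdomyosarcoma line, grown from a tumour of the embryonal kind whose cells resemble immature skeletal muscle. The cells had no treatment, and biotinylated probes in their native lysate were captured on streptavidin beads. The EVEN and the ODD probes both target exon 2 of HIPK3 (chromosome 11, 33286413 to 33287511, plus strand, GRCh38, 1099 nt), which the linear HIPK3 transcript also holds, and the control was a LacZ pull-down, with probes for a bacterial mRNA. The probe sequences were not used here, nor was the recovery of the circle. The series holds 4 libraries, 1 each of input, EVEN, ODD and LacZ, with 1 biological replicate, so no difference below has a replicate check or a p-value. Of 2656 mature miRNAs listed, 470 had at least 20 reads in the input, EVEN or ODD library and make up the set described here. Of these, 461 had at least 20 input reads and 9 entered through a pull-down alone, which had to give them a high ratio.

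CircHIPK3 is a circular RNA made by joining the end of exon 2 of HIPK3 to its own start, and it is known in several cancers as a proposed binder of miRNAs. A mature miRNA is a short RNA loaded into an Argonaute protein, which it guides to target RNAs mainly through its seed, bases 2 to 8 from its 5′ end. A pull-down of a target RNA can therefore bring along miRNAs bound to it, and it also brings whatever beads and probes retain by themselves. The comparison with input asks which miRNAs took a larger or smaller share of the reads after capture, and the 2 probe sets show how far that result was shared between probes.

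The sequences below are those on which the agreement and the disagreement of the 2 probe sets turn. They are RefSeq mature sequences on GRCh38.p14, written 5′ to 3′, with the seed in capitals. First come 3 miRNAs higher than input with both sets, then the let-7 guides that were higher, with let-7a-5p, let-7f-5p and miR-98-5p of the same seed for comparison.
miR-92b-5p: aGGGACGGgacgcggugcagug
miR-423-5p: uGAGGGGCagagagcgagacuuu
miR-21-5p: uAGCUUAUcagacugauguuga
let-7b-5p: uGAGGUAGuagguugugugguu
let-7c-5p: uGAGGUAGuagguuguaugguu
let-7e-5p: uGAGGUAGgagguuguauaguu
let-7a-5p: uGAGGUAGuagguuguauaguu
let-7f-5p: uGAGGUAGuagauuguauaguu
miR-98-5p: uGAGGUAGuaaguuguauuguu

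The next sequences are from miRNAs lower than input with both sets. miR-19a-3p and miR-19b-3p share a seed and differ from each other by U11C, and miR-590-5p has the same seed as miR-21-5p above.
miR-19a-3p: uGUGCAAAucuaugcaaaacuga
miR-19b-3p: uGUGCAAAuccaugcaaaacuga
miR-29b-3p: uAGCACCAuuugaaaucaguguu
miR-362-3p: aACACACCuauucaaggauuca
miR-340-5p: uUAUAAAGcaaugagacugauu
let-7i-3p: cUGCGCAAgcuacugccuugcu
miR-590-5p: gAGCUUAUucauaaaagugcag

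The last sequences are the 6 miRNAs on which the probe sets went opposite ways, higher than input with one set and lower with the other.
miR-18a-5p: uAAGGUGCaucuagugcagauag
miR-489-3p: gUGACAUCacauauacggcagc
miR-17-3p: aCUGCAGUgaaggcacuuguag
miR-510-5p: uACUCAGGagaguggcaaucac
miR-503-5p: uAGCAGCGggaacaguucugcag
miR-15b-5p: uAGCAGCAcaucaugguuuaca

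The input library had 2987858 miRNA reads, against 426450 with ODD, 425395 with LacZ and 98950 with EVEN probes. The input was thus 30.2 times as deep as EVEN and 7.01 times as deep as ODD. The 470 miRNAs took between 99.7% and 99.9% of the reads of each library. By counting error alone, 0 reads leaves room for 30.3 CPM in EVEN and 7.03 CPM in ODD, CPM being the count scaled to a fixed library total. Markers of muscle were present in the input: the 7 skeletal muscle miRNAs listed were all among the 470 and took 6.33% of input reads, whereas 6 blood miRNAs took 0.00405%, with miR-451a and miR-144-5p at 0 reads, and 7 epithelial miRNAs took 0.0195%. miR-124-3p, which marks neurons, had 1 input read and the liver miRNA miR-122-5p had 11, while miR-128-3p and miR-9-5p, which are abundant in the brain, had 59947 and 30054.

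With both probe sets, a small group of miRNAs took a much larger share of reads than in the input, and a larger group took a much smaller share. A miRNA was called by a strict rule when the 95% exact counting interval of its ratio to input lay wholly beyond 2-fold. By that rule 27 miRNAs were higher in both pull-downs (5.74% of the 470), 88 were lower in both (18.7%) and 6 went opposite ways, 2 being higher with EVEN and lower with ODD (0.426%) and 4 the reverse (0.851%). A further 23 were higher with EVEN alone and 23 with ODD alone (4.89% each), 3 were lower with EVEN alone (0.638%) and 126 with ODD alone (26.8%), and 174 met the rule in neither (37%). The 27 higher in both took 4.93% of the input reads but 28.7% of EVEN and 26.6% of ODD reads, against 11.8% in LacZ. The 88 lower in both took 44.2% of the input, 6.14% of EVEN, 3.55% of ODD and 21.9% of LacZ reads. Both groups were thus further from their input share in each circHIPK3 pull-down than in LacZ, but they were chosen by the EVEN and ODD ratios, so this is a description.

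EVEN had 52 miRNAs higher (11.1%) and 95 lower (20.2%) by the strict rule, and ODD had 54 higher (11.5%) and 216 lower (46%). The 27 shared higher miRNAs were 51.9% of the EVEN list and 50% of the ODD list. The 88 shared lower ones were 92.6% of the EVEN list and 40.7% of the longer ODD list. Depth limits the EVEN list. Of the 126 miRNAs lower with ODD alone, 50 had 0 EVEN reads, so no count in that library could have met the rule. The lengths of the 2 lists of lower miRNAs therefore do not show which pull-down held more of them below input. Both lists use the same input library, so an error in an input value moves both ratios together, and these shares are descriptions. LacZ against the same input gave 58 higher (12.3%) and 71 lower (15.1%).

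By a plain 2-fold threshold on the ratio with 0.5 added to each count, 44 miRNAs were higher in both (9.36%), 221 lower in both (47%) and 18 opposite, 10 of them higher with EVEN (2.13%) and 8 with ODD (1.7%). Among calls in a single set, EVEN alone accounted for 37 higher (7.87%) and 13 lower miRNAs (2.77%), ODD alone for 11 (2.34%) and 90 (19.1%), leaving 36 within 2-fold in both (7.66%). EVEN then had 91 higher (19.4%) and 242 lower (51.5%), ODD had 63 (13.4%) and 321 (68.3%), and LacZ had 80 (17%) and 163 (34.7%). Many of these calls rest on few reads. In EVEN 122 of the 242 lower calls were at 0 reads, and for 93 of them a floor of 3 reads bounds the difference at under 2-fold, while 19 of the 91 higher calls rest on 3 or fewer reads. An EVEN share equal to that of the input would give at least 6 reads for 251 of the 470 miRNAs, and an ODD share for 381.

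The median log2 ratio over the 470 was -1.04 for EVEN and -2.19 for ODD, and -0.02 and -1.56 with miRNAs at 0 reads placed at their bound. In LacZ it was -0.45, and -0.42 at the bound. The ratios compare shares and not amounts, since a gain of one miRNA lowers the share of the others. Other scalings move these medians, to -1.38 for EVEN and -1.50 for ODD when TMM factors were used. They were -0.92 and -1.02 by median-of-ratios scaling, and -0.22 and -1.08 by totals that omit the 10 most abundant miRNAs. At the 2-fold threshold the last gave 132 higher and 173 lower for EVEN and 108 and 238 for ODD, and median-of-ratios factors gave 110 and 237 for ODD. With each library centred on its median, EVEN had 141 higher and 150 lower and ODD 158 and 150. For 182 of the 470 miRNAs, the EVEN and ODD ratios lay within 2-fold of each other, and so did 17 of the 27 higher and 47 of the 88 lower ones.

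**Figure D1:**
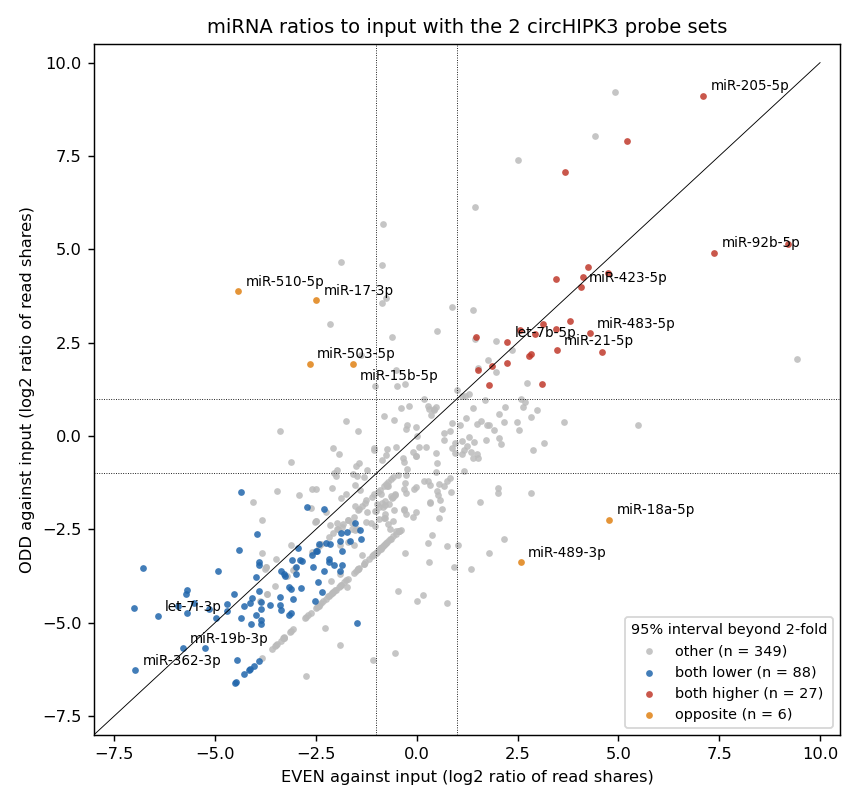
Log2 ratio of read shares to input with EVEN probes (x axis) and ODD probes (y axis) for 470 miRNAs, 1 point each, coloured by the strict rule, with dotted lines at 2-fold and a line of equal ratios. The 27 red points lie at the upper right, the 88 blue points at the lower left and the 6 orange points in the other corners, and the diagonal streak of mostly grey points holds miRNAs with 0 reads in both pull-downs, placed by the 0.5 added to each count.

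Among the miRNAs higher with both sets, some abundant ones gave closely matched ratios. miR-423-5p, which lies in an exon of NSRP1 on chromosome 17 (hairpin 30117079 to 30117172, plus strand), had 3123 input, 1755 EVEN, 7031 ODD and 2247 LacZ reads. It was 16.97-fold higher than input with EVEN probes (95% counting interval 15.996 to 18.0) and 15.8-fold with ODD probes (15.1 to 16.5). In LacZ it was 5.05-fold higher, so both pull-downs lay above the control. miR-3184-3p, at 26.9-fold with EVEN and 20.6-fold with ODD, is the exact reverse complement of miR-423-5p from the opposite strand. Its reads were 20.7% of those of miR-423-5p in the input, 32.8% in EVEN and 27.0% in ODD. The sources used here do not give whether counting used strand, so reads of the pair cannot be told apart.

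miR-92b-5p, the usually minor arm of a hairpin on chromosome 1 (155195177 to 155195272, plus strand), had 63 input, 350 EVEN, 272 ODD and 112 LacZ reads. It was 168-fold higher than input with EVEN probes (128 to 223) and 30.2-fold with ODD probes (22.9 to 40.5), and 12.5-fold in LacZ. Its other arm, miR-92b-3p, had 407 input, 28 EVEN and 71 ODD reads, with log2 ratios of 1.08 and 0.30. In LacZ the arms were at 3.64 and 0.51, so the 5p arm was the higher one in the control too.

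miR-21-5p, raised in many tumours, is the one of the 27 whose log2 ratio in LacZ lay below 0. It had 6525 input, 2410 EVEN, 4602 ODD and 599 LacZ reads, and lies in an exon of VMP1 on chromosome 17 (59841266 to 59841337, plus strand). It was 11.2-fold above input with EVEN (10.6 to 11.7) and 4.94-fold with ODD probes (4.76 to 5.13), and its log2 ratio in LacZ was -0.63. let-7b-5p, which restrains growth, had 89185 input, 14024 EVEN, 72979 ODD and 25067 LacZ reads. It was 4.75-fold above input with EVEN (4.66 to 4.83) and 5.73-fold with ODD probes (5.68 to 5.79), against 1.97-fold in LacZ.

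The highest ratios of all belonged to miRNAs that are nearly absent from the input. miR-205-5p, an epithelial miRNA in an exon of MIR205HG on chromosome 1 (209432133 to 209432242, plus strand), had 4 input, 20 EVEN, 355 ODD and 208 LacZ reads. It was 151-fold above input with EVEN (50.6 to 607) and 622-fold with ODD probes (241 to 2295), but 365-fold in LacZ. The control thus held it at a level between the 2 probe sets. miR-365b-5p had 1 input, 29 EVEN, 7 ODD and 1 LacZ reads, and was 876-fold above input with EVEN (145 to 35765) and 49.04-fold with ODD probes (6.30 to 2210). Its relative miR-365a-5p, with the same seed, was 10.7-fold (5.02 to 21.1) and 18.8-fold higher (12.5 to 28.7).

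miR-3177-3p, with 4 input, 5 EVEN and 152 ODD reads, was 37.7-fold above input with EVEN (8.12 to 190) and 266-fold with ODD (102 to 990). miR-4741 (18.6-fold and 23.7-fold), miR-760 (17.4-fold and 19.3-fold) and miR-1247-5p (12.5-fold and 136-fold) completed the 10 with the largest smaller ratio. miR-205-5p, miR-365b-5p, miR-3177-3p and miR-4741 had under 20 input reads, and so are among the 9 that a high pull-down count alone brought into the set. In LacZ, miR-1247-5p was 36.5-fold and miR-760 9.66-fold above input.

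The remaining miRNAs higher with both sets lay between 2.60-fold and 24.03-fold above input. miR-483-5p, encoded within the IGF2 gene, had 6600 input, 4278 EVEN, 6371 ODD and 8043 LacZ reads, and was 19.6-fold higher with EVEN, 6.76-fold with ODD and 8.56-fold with LacZ probes. miR-877-5p, a mirtron released by splicing of ABCF1, was 7.61-fold (6.63 to 8.72) and 6.63-fold higher (6.07 to 7.24), against 2.15-fold in LacZ. miR-1307-3p was 3.61-fold and 3.65-fold higher, against 44.7-fold in LacZ. Over the 27, log2 ratios ran from 1.46 to 9.21 in EVEN, from 1.38 to 9.11 in ODD and from -0.63 to 8.35 in LacZ, with medians of 3.47, 2.83 and 2.54. The control was thus above input for most of these miRNAs. The medians of the pull-downs lay above that of LacZ, but the 27 were chosen for high EVEN and ODD ratios, so this is a description. miR-483-5p, miR-1307-3p, miR-21-5p and miR-92b-3p were named after their values were seen.

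**Figure D2:**
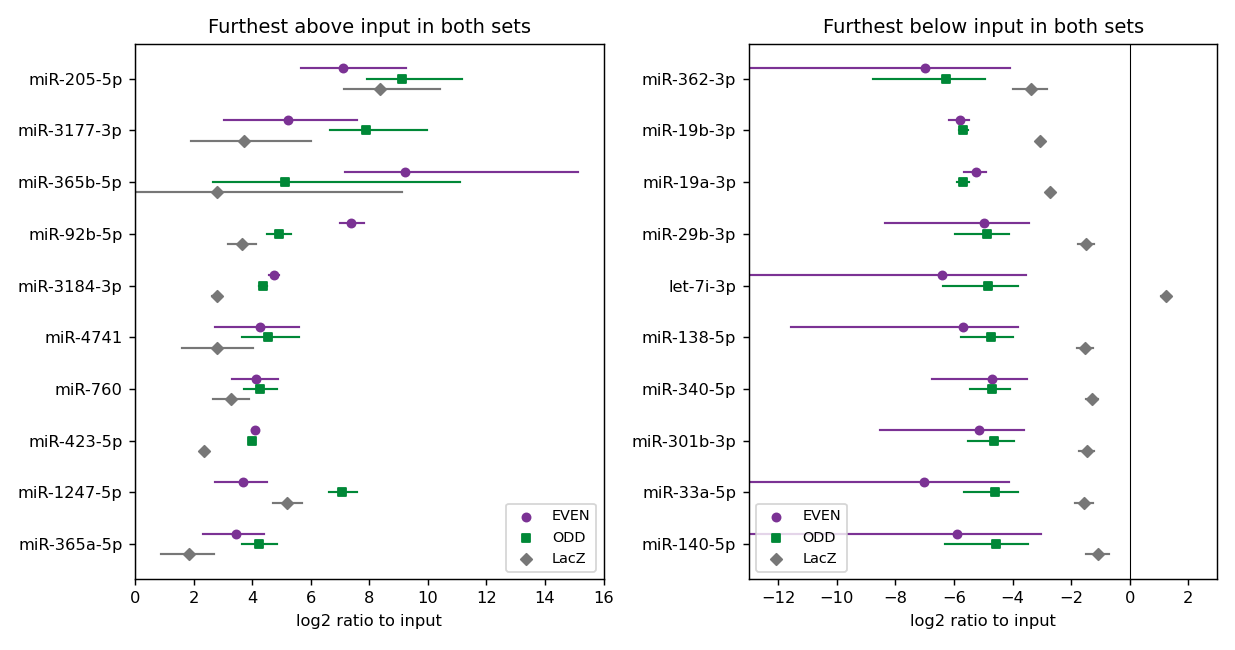
Log2 ratio to input of the 10 miRNAs furthest above (left) and the 10 furthest below input (right) in both sets, with 95% exact counting intervals for EVEN (circles), ODD (squares) and LacZ (diamonds). Intervals that reach the left edge of the right panel belong to miRNAs with 0 EVEN reads, whose point is placed by the 0.5 added; the LacZ interval of miR-365b-5p runs past the left edge of the left panel, and let-7i-3p stands apart with LacZ above input.

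Among the miRNAs lower with both sets were some of the most abundant in RD cells. miR-19b-3p, of the growth-promoting miR-17-92 cluster, had 119816 input reads but 71 in EVEN, 334 in ODD and 2055 in LacZ. It was 55.9-fold lower than input with EVEN (44.3 to 71.6) and 51.2-fold with ODD probes (45.99 to 57.2). miR-19a-3p, with 69559, 60, 192 and 1506 reads, was 38.4-fold (29.8 to 50.3) and 51.7-fold lower (44.9 to 59.9). The log2 ratios of these miRNAs in LacZ were -3.05 and -2.72, also far below input but higher than in either pull-down.

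miR-362-3p, in an intron of CLCN5 on chromosome X (50008964 to 50009028, plus strand), had 1900 input, 0 EVEN, 3 ODD and 26 LacZ reads. It was at least 21.0-fold lower with EVEN and 90.4-fold lower with ODD probes (30.9 to 439). miR-29b-3p, which represses collagen genes, had 2381 input, 2 EVEN, 11 ODD and 120 LacZ reads and was 39.4-fold (10.9 to 326) and 30.9-fold lower (17.2 to 61.97). miR-33a-5p, encoded in an intron of the cholesterol regulator SREBF2, had 1955 input, 0 EVEN and 11 ODD reads and was at least 21.6-fold lower with EVEN and 25.4-fold with ODD (14.1 to 50.9). All of these were below LacZ as well, where their log2 ratios were -3.35, -1.49 and -1.54.

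let-7i-3p, the passenger strand of let-7i, went the other way in the control. It had 1286 input, 0 EVEN, 6 ODD and 432 LacZ reads, and was at least 14.2-fold lower with EVEN and 30.6-fold lower with ODD probes (14.02 to 83.5), with a LacZ log2 ratio of 1.24. Its guide partner let-7i-5p stayed near input, at -0.38 in EVEN and 0.76 in ODD. miR-138-5p, miR-340-5p, miR-301b-3p and miR-140-5p completed the 10 lowest, between 25.5-fold and 27.8-fold lower with ODD probes, with 1, 4, 2 and 0 EVEN reads. miR-660-3p and miR-873-5p, with 343 and 334 input reads, had 0 reads in both pull-downs, which bounds them at no less than 3.79-fold and 3.69-fold lower with EVEN, and 16.3-fold and 15.9-fold with ODD probes. The shallower EVEN library sets these smaller bounds.

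Over the 88, log2 ratios in LacZ ran from -3.35 to 1.24 with a median of -1.33, while the medians in EVEN and ODD were -3.39 and -4.10, or -2.99 and -3.78 with 0 reads at the bound. The 88 were chosen for low EVEN and ODD ratios, so this too is a description. Besides let-7i-3p, miR-7-5p had a LacZ log2 ratio above 0, at 1.00. Strict lower calls in both sets were 43 of 94 with 1000 to under 10000 input reads and 24 of 51 with 10000 or more. Of 168 miRNAs with under 100 input reads none was called. At the depth of EVEN, even 0 reads there could not meet the rule for such miRNAs, so that count was fixed in advance. Of the 27 higher calls, 13 had under 100 input reads, 4 of them under 20, which entered the set only through a high pull-down count.

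Scaled by library totals, the 2 probe sets went opposite ways for 6 miRNAs. These directions depend on the scaling. In ODD miR-18a-5p, at a log2 ratio of -2.24, lay near the median of -2.19 over all 470. In EVEN miR-15b-5p was at -1.59, against a median of -1.04. In the library where each was lower, the rest of the 6 lay further below the median. miR-18a-5p had 10907 input, 9897 EVEN, 329 ODD and 819 LacZ reads, and was 27.4-fold above input with EVEN (26.7 to 28.2) whereas ODD probes gave a value 4.73-fold lower than input (4.24 to 5.30). miR-489-3p, from an intron of CALCR, had 254, 50, 3 and 11 reads in the same order, with EVEN 5.94-fold above input (4.30 to 8.08) and ODD 12.1-fold below it (4.09 to 58.99). In LacZ both were below input, at log2 ratios of -0.92 and -1.66.

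In the other direction, miR-17-3p had 2794 input, 16 EVEN, 4984 ODD and 213 LacZ reads, 5.78-fold lower with EVEN (3.56 to 10.1) and 12.5-fold higher with ODD probes (11.9 to 13.1). miR-510-5p had 323, 0, 682 and 12 reads, at least 3.57-fold lower with EVEN and 14.8-fold higher with ODD (12.9 to 16.9). miR-503-5p had 10679, 56, 5860 and 672 reads, 6.32-fold lower (4.86 to 8.37) and 3.85-fold higher (3.72 to 3.97). miR-15b-5p had 6307, 69, 3425 and 346 reads, 3.03-fold lower (2.39 to 3.90) and 3.81-fold higher (3.65 to 3.97). LacZ log2 ratios of these miRNAs lay between -1.88 and -0.90. For each of the 6, the intervals of EVEN and ODD lay on opposite sides of input, and the lower of the pull-downs was on the same side as LacZ.

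Other miRNAs were higher by the strict rule with a single set. miR-509-3p had 1099 input, 1623 EVEN, 192 ODD and 4297 LacZ reads, 44.6-fold above input with EVEN (41.3 to 48.2) and 1.22-fold with ODD (1.05 to 1.43), while its LacZ log2 ratio was 4.78. miR-1914-5p, with 2 input, 57 EVEN and 1 ODD reads, was 861-fold above input with EVEN (228 to 7278). With ODD probes the highest beside miR-205-5p and miR-3177-3p were miR-1237-3p, at 883-fold (156 to 35142) from 126 ODD reads and 1 input read, and miR-6735-5p, at 304-fold (102 to 1491) from 130 and 3. miR-184 followed at 173-fold, with an interval of 108 to 295 and 445 ODD and 18 input reads. Their EVEN counts of 1, 2 and 3 reads leave intervals that reach below 2-fold. miR-1914-5p, miR-1237-3p, miR-6735-5p and miR-184 had under 20 input reads, and entered the set only through the pull-down that put them highest. At the plain 2-fold threshold these miRNAs were higher in both sets, and the LacZ log2 ratio of miR-1237-3p was 4.69.

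Counts of family members below are to be read against all 470 miRNAs, of which 47% were lower and 9.36% higher in both sets at 2-fold, and 18.7% and 5.74% by the strict rule. The let-7 guides, all with the seed GAGGUAG, had median log2 ratios of 0.31 in EVEN, 0.76 in ODD and 0.33 in LacZ, each above the median of all 470 in that library. Of the 9 guides, let-7b-5p, let-7c-5p and let-7e-5p were higher in both sets by either rule, and none was lower in both. let-7c-5p was 2.85-fold (2.68 to 3.03) and 3.43-fold higher (3.32 to 3.54), and let-7e-5p 3.45-fold (3.31 to 3.59) and 2.60-fold (2.54 to 2.67). let-7a-5p, the most abundant miRNA of the input at 7.37% of reads, stayed within 2-fold at log2 ratios of 0.29 and 0.81. Counting from the 5′ end, let-7b-5p differs from it by A17G and A19G, let-7c-5p by A19G and let-7e-5p by U9G.

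Other guides of the family had lower ratios. let-7f-5p, which differs from let-7a-5p by G12A, had -0.57 and 0.43, and miR-98-5p, with G11A and A19U, was lowest of the guides at -1.93 and -0.47. miR-98-5p had 13853 input, 120 EVEN and 1426 ODD reads. Reads of such similar miRNAs can be misassigned, and how ambiguous reads were assigned was not stated. The 10 let-7 passenger strands tested had none higher and 3 lower in both sets, with medians of -0.53 in EVEN (0.78 with 0 reads at the bound) and -1.92 in ODD (-1.53).

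Muscle miRNAs with the same seed also parted. miR-206, at 4.21% of input reads, was 2.26-fold above input with EVEN (2.22 to 2.31) and within 2-fold of input with ODD probes, at a log2 ratio of -0.36. miR-1-3p, which differs from miR-206 by G11A, G17A, G21A and G22U, was 8.60-fold (7.37 to 10.1) and 9.98-fold lower (9.21 to 10.8). Of the 7 muscle miRNAs 4 were lower in both sets by the 2-fold threshold, a share near that of all 470, and 3 by the strict rule. miR-499a-5p, one of the 3, had 270 input reads and 0 in both pull-downs. The fourth, miR-208b-3p, had 34 input reads and 0 in both, too few to show a lower share in EVEN. The list's EVEN median of -1.19 becomes 0.37 with 0 reads at the bound, and miR-486-5p was highest at log2 ratios of 2.58 and 0.99. miR-21-5p and miR-590-5p share a seed as well, and miR-590-5p, with 2867 input, 6 EVEN and 13 ODD reads, was 15.8-fold (7.26 to 43.2) and 31.5-fold lower (18.4 to 59.2), against the higher miR-21-5p. Of 43 seeds shared by at least 2 of the 470 miRNAs, 15 had every member at least 2-fold lower in both sets, 2 had every member higher, and 2 held members of both kinds. These counts use the 2-fold threshold and include calls on few reads. One seed with every member higher is that of miR-365a-5p and miR-365b-5p, the latter in the set only through a pull-down. One of the mixed seeds is that of miR-485-3p, with 2 EVEN reads, and miR-539-3p, with 56 input reads and 0 in both pull-downs. miR-590-5p, let-7c-5p, let-7e-5p, miR-208b-3p, miR-539-3p and, in what follows, miR-1224-5p, miR-181d-5p, miR-421 and miR-1307-5p were named after their values were seen.

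In 3 families every tested member was lower with both sets. The miR-29 family, with 3 members, the miR-30 family, with 5, and the miR-130, miR-301 and miR-454 family, with 5, had every tested member at least 2-fold below input in EVEN and in ODD when ratios were scaled by library totals, 3, 4 and 4 of them by the strict rule. This did not hold under every setting: centred on the median, miR-30a-5p in EVEN was at 0.0132 and miR-454-3p at -0.48 in EVEN and -0.32 in ODD, and with 5 added to each count miR-30a-5p was at 0.90 in EVEN. Median log2 ratios in EVEN and ODD were -4.98 and -4.54 for miR-29, -2.48 and -3.62 for miR-30 and -3.40 and -4.54 for the miR-130 group. The miR-29 median in EVEN is -4.28 with miR-29c-3p, at 0 reads, set to its bound. Within miR-30, miR-30e-5p had 45960 input, 158 EVEN and 487 ODD reads, and miR-30a-5p, with 92, 1 and 2, rests on too few reads for the strict rule. In LacZ the medians of the 3 families were -1.49, -1.26 and -1.46.

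The miR-15/16 family, which represses cell cycle genes, differed between the probe sets as a group. Of 5 members tested, 4 were lower and none higher in EVEN, while 3 were higher and 1 lower in ODD, with medians of -2.65 and 1.93. Over all 470, 51.5% were lower in EVEN and 13.4% higher in ODD. In LacZ 4 of the 5 were lower and none higher, with a median of -1.37, and miR-16-5p was near input at 0.20. The family median was thus below input with EVEN and LacZ probes and above it with ODD probes, which does not hold for every member. miR-16-5p had 75357 input, 1621 EVEN, 67640 ODD and 12285 LacZ reads, 1.54-fold lower with EVEN (1.47 to 1.62) and 6.29-fold higher with ODD (6.22 to 6.36). miR-424-5p was lower in both, at -4.36 and -1.50. The family took 3.30% of input, 1.78% of EVEN, 18.2% of ODD and 3.18% of LacZ reads. miR-103a-3p was likewise higher with ODD alone, at a log2 ratio of 1.38 against -0.30 with EVEN. miR-24-3p, at 1.33 with ODD and -1.04 with EVEN, went opposite ways at 2-fold and was higher with ODD alone by the strict rule.

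Members of the miR-17-92 cluster, encoded in MIR17HG on chromosome 13, were spread over several classes. Copies of miR-19b-3p and miR-92a-3p also lie on chromosome X, so reads of these can come from either locus. Of 10 tested, 5 were lower in both sets, a share near that of all 470 at 2-fold, all 5 also by the strict rule, miR-92a-1-5p, with 5 EVEN reads, was higher in both at 2-fold only, and miR-17-3p and miR-18a-5p went opposite ways. miR-20a-5p had 102777 input, 758 EVEN and 1501 ODD reads, with log2 ratios of -2.17 and -3.29. The miR-188 to miR-660 cluster on chromosome X had 8 of 13 lower in both, 5 by the strict rule, with miR-660-5p at -3.86 and -4.44 and miR-501-3p highest at 1.602 and 0.41. The miR-506 to miR-514 family had 4 of 10 lower in both at 2-fold, near the share of all 470. By the strict rule 3 of the 10 were lower in both, against 18.7% of all 470. None was higher in both, and miR-514a-3p was at -2.86 and -4.07. Of 27 tested miRNAs of the imprinted 14q32 cluster 10 were lower and 2 higher in both by the 2-fold threshold, with miR-409-3p at 1.44 and 2.61. The share of lower calls at 2-fold was below that of all 470. None was called in both sets by the strict rule, by which miR-409-3p was higher with ODD alone. However, most of the cluster had too few input reads for a strict lower call in EVEN, even at 0 reads. The strict share of lower calls therefore cannot be set against that of all 470. In EVEN 13 of these 27 had 0 reads, and their median of -0.97 becomes 0.69 at the bound.

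Of 5 mirtrons and similar intron-derived miRNAs tested, 3 were higher in both sets at 2-fold and none lower, with medians of 2.37 in EVEN, 2.31 in ODD and 2.38 in LacZ. By the strict rule this holds for miR-877-5p alone, since miR-1224-5p rests on 3 EVEN reads and miR-1237-3p on 1, and the latter entered the set only through its ODD reads. The miR-99/100 and miR-125 families had 1 of 5 lower in both and none higher, with miR-125b-5p at -0.74 and -1.34 and miR-99b-5p at 1.34 and -0.43. Of 5 miR-23, miR-24 and miR-27 members 3 were lower in both, miR-27b-3p being at -2.57 and -3.51. The miR-181 family had 3 of 4 lower in both at 2-fold and 0 by the strict rule, with 0 EVEN reads for miR-181c-5p and 1 for miR-181d-5p, and the miR-26 family had 1 of 2 by either rule, while the 2 miR-320 and the 2 miR-103/107 members tested had none lower or higher in both. Of the 3 neural miRNAs tested, miR-128-3p, miR-9-5p and miR-9-3p, all were lower in both sets by the strict rule, at log2 ratios from -4.92 to -1.42 in EVEN. Of 6 epithelial miRNAs 3 were lower in both by the 2-fold threshold and none by the strict rule, all 3 with 0 EVEN reads, and the EVEN median of -0.92 becomes 0.15 with 0 reads at the bound. miR-205-5p, as given above, was the 1 higher in both, and the single blood miRNA tested, miR-223-3p, was at -0.28 and -1.25.

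**Figure D3:**
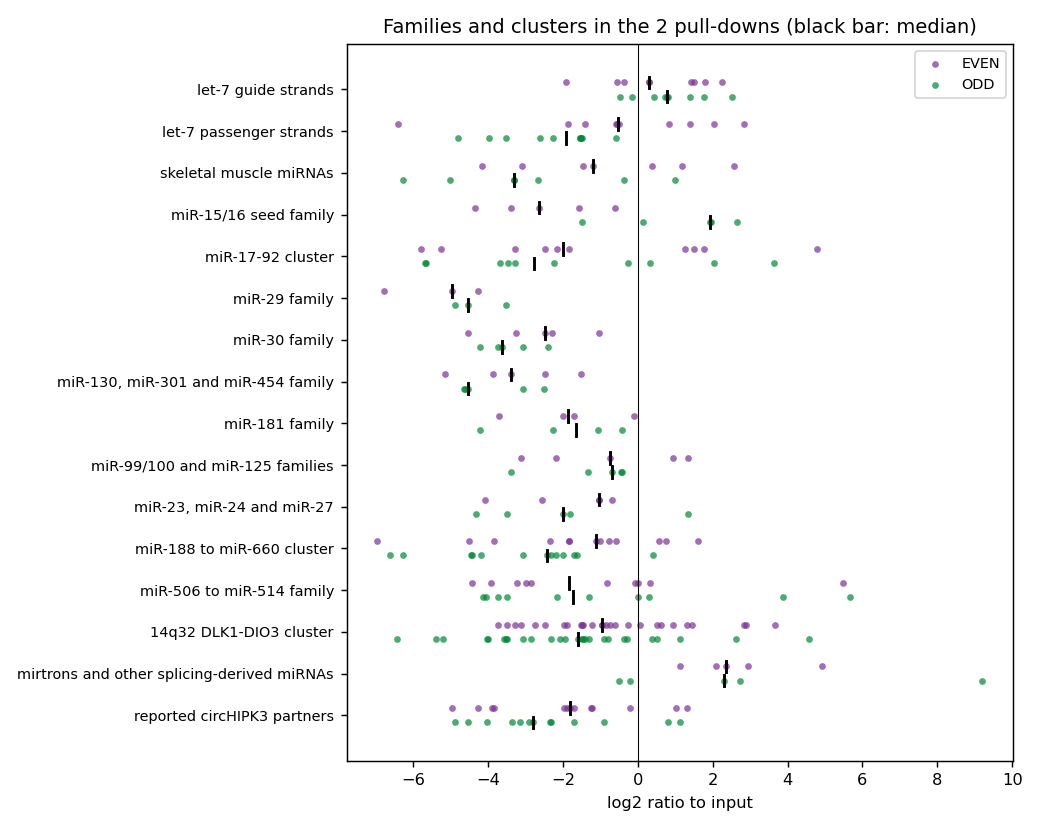
Log2 ratio to input of each tested member of 16 families and clusters with EVEN probes (upper row of each) and ODD probes (lower row), with a black bar at the median. The miR-29, miR-30 and miR-130 groups lie below input in both rows, most let-7 guides lie around or above 0, and the miR-15/16 family is split between the rows; miRNAs at 0 reads are placed by the 0.5 added.

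miRNAs named elsewhere as partners of circHIPK3 were mostly below input with both sets. Of 19 listed, 13 were tested, and 9 of these were at least 2-fold lower in both, 4 of them by the strict rule, against 47% and 18.7% of all 470. The medians were -1.83 in EVEN (-1.25 with 0 reads at the bound) and -2.80 in ODD. miR-7-5p, known for its binding to the circular RNA CDR1as, had 33324 input, 295 EVEN, 681 ODD and 9503 LacZ reads, with log2 ratios of -1.90, -2.80 and 1.00. miR-29a-3p had 4970, 8, 30 and 242 reads, with -4.28, -4.54 and -1.55. By the 2-fold threshold miR-421 went opposite ways and miR-485-3p was higher in both, at 1.31 and 1.13 from 2 EVEN and 9 ODD against 30 input reads, whose counting intervals did not pass the strict rule. miR-107, at -0.20 and 0.80, was within 2-fold in both sets.

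Sites for the seeds in exon 2 were counted as perfect matches to bases 2 to 8, 7 letters long, on the exon's own strand and across the joined ends. Mature sequences were matched by name for 430 of the 470 miRNAs. A match lay in exon 2 for 50 of these 430, or 11.6%. By the strict rule, none of the 25 sequenced miRNAs higher in both sets had one. Among those lower, it was 9 of 78 in both (11.5%) and 21 of 115 with ODD alone (18.3%). Of those higher in a single set, 0 of 22 with EVEN and 2 of 22 with ODD (9.09%) had a match. At the plain 2-fold threshold, 2 of 41 higher in both had one (4.88%), against 30 of 198 lower in both (15.2%). These matches are letters in a sequence, not shown binding sites. Of the 6 opposite miRNAs, miR-17-3p had a match, at 33286676 to 33286682 of chromosome 11. Shown here in capitals with 8 bases of exon 2 on each side are this match and that of miR-33a-5p, lower in both sets, at 33286833 to 33286839.
miR-17-3p match: ugaaaaacACUGCAGgugcuaca
miR-33a-5p match: uagcagcgCAAUGCAgauugucg

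The sequences of the 2 agreeing groups differed in base content. GC content of the mature miRNA had a median of 63.6% over 25 miRNAs higher in both sets, with quartiles at 56.5% and 70.0%, and of 40.9% over 78 lower in both, with quartiles at 34.8% and 47.6%. It was 47.6% over all 430, and the median length was 22 bases in each. miR-21-5p and the let-7 guides, at 36.4% to 45.5%, were exceptions among the higher miRNAs, and let-7i-3p, at 59.1%, and miR-1307-5p, at 71.4%, among the lower ones. Among the printed sequences, miR-92b-5p is mostly G and C and miR-340-5p mostly A and U, while miR-21-5p, the let-7 guides and let-7i-3p depart from this.

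The same relation was present in the control. Of 222 sequenced miRNAs with at least 200 input reads, the 80 with a GC content up to 40.9% had median log2 ratios of -2.80 in EVEN, -3.46 in ODD and -0.98 in LacZ (-2.18 and -3.40 in EVEN and ODD with 0 reads at the bound). The 46 with 57.1% or more had -0.13, -0.38 and 0.56. Both sets were lower by at least 2-fold for 73.8% of the first group and 19.6% of the second. Across these 222 miRNAs, which share their libraries, Spearman's rho between GC content and ratio was 0.48 in EVEN, 0.47 in ODD and 0.43 in LacZ. The part that GC content has in the ratios was not tested.

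**Figure D4:**
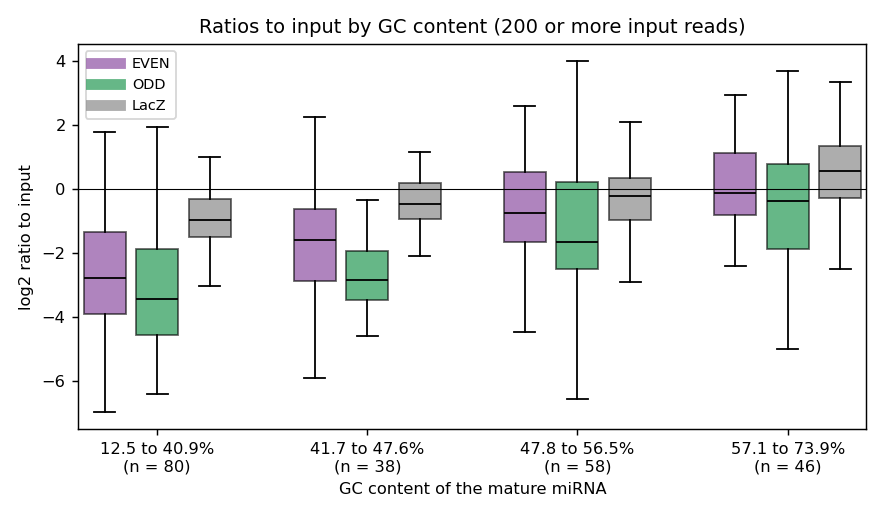
Log2 ratio to input for miRNAs with at least 200 input reads, in 4 groups by the GC content of the mature sequence (x axis), as boxes of the quartiles with the median as a black line and whiskers to the furthest value within 1.5 times the box length. In EVEN, ODD and LacZ alike the medians go up from the leftmost group (-2.80, -3.46 and -0.98) to the rightmost (-0.13, -0.38 and 0.56).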

How the data were processed

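Small RNA of 4 RD libraries was sequenced single-end with the QIAseq miRNA kit, per the labels' protocols. The deposited values are raw counts for each mature miRNA and the authors' CPM, and CPM recomputed from counts and library totals equalled them. The build is GRCh38, per the submitters' processing notes. Not given in the sources used here: trimming, aligner, miRNA annotation, strand and use of molecular identifiers. Uncollapsed copies would make counting intervals too narrow.

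Ratios are log2 of (count + 0.5) over library total, against input, for miRNAs with at least 20 reads in input, EVEN or ODD. Folds are ratios of shares without the 0.5, with exact conditional Clopper-Pearson 95% intervals. Intervals and floors (3 counts) cover counting error only. With 1 library per group there is no test. The members and lists were chosen with earlier results of these data known.

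Named miRNAs are the 10 highest and 10 lowest by the smaller ratio among strict calls in both sets, opposite calls, the 5 highest and 5 lowest per set, the 5 most abundant per library and up to 4 per list (most abundant, highest and lowest mean ratio). Mature sequences come from RefSeq (430 matched, 40 not), exon 2 and host genes from GENCODE release 29. Tools were Python 3.11.15, pandas 2.3.3, scipy 1.17.1, and, for scaling factors only, edgeR 4.0.16 and DESeq2 1.42.0 in R 4.3.3. Scripts were tested on simulated data.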

Additional observations from a re-analysis of the deposited data

Results flagged for a closer look

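For 6 miRNAs the ratio to input, scaled by library totals, pointed up in one circHIPK3 pull-down and down in the other, beyond 2-fold by counting intervals. With 1 library of each kind, the difference was not tested. The log2 ratio with EVEN minus that with ODD probes was 7.02 for miR-18a-5p and 5.96 for miR-489-3p, which were higher with EVEN. It was -8.31 for miR-510-5p, -6.13 for miR-17-3p, -4.59 for miR-503-5p and -3.52 for miR-15b-5p, which were higher with ODD. The value for miR-510-5p rests on 0 EVEN reads and on the 0.5 added to them.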

How the results depend on the processing

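No paired analysis was possible because each group is 1 library. The counts at the 2-fold threshold depended on the treatment of low counts and on the scaling, and TMM factors or 1 CPM added left all 7 counts within 1.5 times. Median-of-ratios size factors gave 110 higher with ODD and 70 in both, and totals without the 10 most abundant miRNAs gave 108 and 81. Centred on the median, EVEN had 141 higher and 150 lower, ODD 158 and 150, and both 107 and 111. With a minimum of 1 read, 719 were higher with EVEN, 430 with ODD and 400 in both, and 45 opposite; with 100 reads these were 52, 41, 28 and 10. With at least 200 input reads, EVEN had 35 higher and 136 lower, ODD 28 and 176, both 17 and 127, and 8 were opposite. With 5 added to each count EVEN had 200 higher and 99 lower, and 92 were lower in both. With 0 reads set to 3, EVEN had 141 higher and 156 lower, 143 were lower in both and 29 opposite. At 4-fold, EVEN had 51 higher and 153 lower, both 26 and 134, and 6 were opposite. When the interval also had to exclude equality, EVEN had 161 lower and 11 were opposite. When it had to lie beyond 2-fold, EVEN had 52 and 95, both 27 and 88, and 6 were opposite. Of the 44 higher and 221 lower in both, 40 and 205 were kept by TMM and 44 and 182 by median-of-ratios factors.

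Of the named log2 ratios that were beyond 2-fold from input, those that changed sign when centred on the median were in ODD miR-93-5p (0.24), miR-223-3p (0.94), let-7e-3p (0.65), miR-424-5p (0.69), miR-125b-5p (0.85), miR-26a-5p (0.37), miR-381-3p (0.24) and miR-508-3p (0.01), and in EVEN miR-30a-5p (0.0132) and miR-24-3p (0.0057). With 5 added, miR-30a-5p in EVEN was the 1 such ratio to change sign (0.90). Ratios within 2-fold of input also changed sign and are not listed. The cause was not tested. Depth limits EVEN most, where 150 of 470 miRNAs had 0 reads, and a lone library of each kind limits every value.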

Other observations

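Both arms of 122 hairpins were among the 470 miRNAs. In 47 of these hairpins both arms were at least 2-fold below input in both probe sets, and in 2, miR-1306 and miR-3184, both arms were above. Over all 470 miRNAs, 221 (47%) were lower in both at 2-fold, and 111 of these 221 had 0 EVEN reads. By the strict rule fewer hairpins had both arms lower in both sets. miR-1306-3p and miR-3184-5p were then higher with ODD alone. In 2 hairpins the arms went opposite ways at 2-fold. In miR-21 the 5p arm was higher, and the 3p arm had 97 input reads and 0 in both pull-downs, with 5 in LacZ; 0 EVEN reads bound it at only 1.07-fold lower, and by the strict rule it was lower with ODD alone. In miR-1307 the 3p arm was higher, with 284 input, 34 EVEN and 148 ODD reads, and the 5p arm lower, with 2395, 5 and 10 reads.

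The arms of miR-1307 hardly differ in GC content, at 71.4% for 5p and 72.7% for 3p, and the log2 ratio of 5p minus that of 3p was -5.72 in EVEN, -6.90 in ODD and -6.70 in LacZ. The 5p arm was the higher one in 62 of 122 hairpins in EVEN, 65 in ODD and 66 in LacZ. Of 96 hairpins whose arms differ in GC content, the arm richer in GC had the higher ratio in 64 in EVEN, 61 in ODD and 58 in LacZ.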
